A study of Homo sapiens with 12 samples.

Results

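Lysyl oxidases and lysyl hydroxylases were compared in 2 HNSCC cell lines with and without inducible MUC1 silencing. The family was taken by gene symbol and holds 8 of the 39368 symbols in the deposited count tables: the 5 lysyl oxidases LOX, LOXL1, LOXL2, LOXL3 and LOXL4 and the 3 lysyl hydroxylases PLOD1, PLOD2 and PLOD3. LOXL4 was the starting point because it responded to doxycycline (DOX) differently in the 2 lines, so all of its values are given as a description without a test. The other 7 genes, called its relatives here, were then compared with vehicle and with DOX. All 8 genes passed the filter on low counts in each of the 5 comparisons.

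CAL27 and HSC3 are HPV-negative lines from squamous carcinomas of the mouth. Both carried a lentiviral vector with a MUC1 shRNA under a DOX-responsive promoter (tet-MUC1shRNA) and were grown under puromycin selection. Each line was exposed for 7 days either to 0.1% DMSO as the vehicle or to 500 ng/mL DOX, and 3 RNA-seq libraries were made per line and treatment, 12 in all. CAL27 cells were kept in DMEM and HSC3 cells in MEM, and the counts of each line came in their own table, so cell line, medium and table cannot be told apart. No DOX-treated library with the control shRNA was analysed here, so the effects of DOX itself and of MUC1 silencing cannot be told apart. The labels give culture in triplicate, and the study's methods say in general that experiments were repeated, but neither says whether the libraries of a group came from separate experiments. The p values therefore measure the spread between these libraries, and each line is 1 line.

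Lysyl hydroxylases act in the endoplasmic reticulum, where they add hydroxyl groups to lysines of procollagen chains. Lysyl oxidases are secreted, copper-dependent amine oxidases that turn lysines and hydroxylysines of collagen and elastin into reactive aldehydes, which then form the cross-links between fibers. LOX and PLOD2 are well known as genes induced by hypoxia through HIF-1, and cross-linking by tumor cells and fibroblasts stiffens the matrix of carcinomas.

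The promoters of the family were searched for the core of the hypoxia response element, because LOX and PLOD2 are known as hypoxia-induced. The letters searched were ACGTG and GCGTG on either strand, in the 250 bases before each start in the RefSeq promoter table for GRCh38.p14. ACGTG was found in 18.5% and GCGTG in 32.2% of the 35116 promoters in that table. The table held 10 windows for 7 members, all but LOXL2. The cores are shown for the most upstream window of LOX, which had 3, and for PLOD2. Each stretch of 25 bases below is written 5′ to 3′ on the minus strand, on which both genes lie, with the core or its reverse complement in capitals. The number is the distance in bases of the first capital before the start.
LOX 185 (chr5:122078430-122078454): tccctgtgcaACGTGtctgggggga
LOX 116 (chr5:122078361-122078385): gtccgccttgCACGTttccaatcgc
LOX 98 (chr5:122078343-122078367): caatcgcattACGTGaacaaatagc
LOX 42 (chr5:122078287-122078311): aactttgcaaACGTGccagaaagtt
PLOD2 213 (chr3:146161383-146161407): cagaagcgctGCGTGagcctccaca
PLOD2 200 (chr3:146161370-146161394): tgagcctccaCACGTagccgcaggc
PLOD2 146 (chr3:146161316-146161340): aacagtccagACGTGgggcccagga

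The LOX window shown held ACGTG 4 times, and the other 2 LOX windows, which start further into the gene, each held ACGTG 1 time and GCGTG 1 time. Those 2 windows (chr5:122077224-122077473 and chr5:122077175-122077424) overlap and hold the same sites. The PLOD2 window held ACGTG 2 times and GCGTG 1 time, the PLOD1 window held GCGTG 2 times, and 1 of 2 LOXL3 windows held GCGTG 1 time. The windows of LOXL1 and PLOD3 held neither. The LOXL4 window also held neither, was 86.4% G and C, and is shown whole for comparison.
LOXL4 (chr10:98268195-98268444, minus strand): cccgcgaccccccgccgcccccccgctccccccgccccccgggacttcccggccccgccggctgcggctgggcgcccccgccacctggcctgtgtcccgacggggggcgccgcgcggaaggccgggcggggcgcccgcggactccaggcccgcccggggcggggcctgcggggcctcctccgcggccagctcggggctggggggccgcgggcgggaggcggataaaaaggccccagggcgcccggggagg

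These matches describe the letters in the windows and were not tested for binding. The AP-1 motif TGANTCA, found in 6.57% of all promoters in the table, was in none of the 10 windows.

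The libraries summed to between 89730914 and 169065103 counts. Counts per molecule, estimated from genes that had no count, were 2.42 to 3.38 in CAL27 cells, 4.19 to 7.45 in HSC3 vehicle libraries and 8.98 to 17.3 in HSC3 DOX libraries. HSC3 DOX replicate 1 stood apart, with the estimate of 17.3 and a chi-square per degree of freedom of 132 and 85.4 against the other DOX replicates, where that pair had 22. Many results are given with and without it. MUC1 checked the labels, since it fell by 4.21 on the log2 scale (standard error, SE, 0.0666, edgeR adjusted p = 1.6e-19) in CAL27 and fell by 2.88 (SE 0.376, edgeR adjusted p = 0.0002) in HSC3 cells. All 8 squamous markers listed had a mean of at least 1 CPM, the count scaled to library size, in every group, with sums of 5890 to 6590 CPM with vehicle and 2690 to 3180 CPM with DOX over the 2 lines. KRT5 alone had means of 3700 and 2890 CPM in CAL27 and HSC3 vehicle cells. KRT5, KRT14, KRT6A, KRT17, TP63 and DSG3 fell in both lines. EPCAM rose by 0.40 (log2) in CAL27 (edgeR adjusted p = 6.7e-06) and 0.87 in HSC3 cells (edgeR adjusted p = 2.8e-05). CDH1 did not pass in either line (edgeR adjusted p = 0.52 and 0.87). Of the 9 fibroblast markers, COL3A1 had no count in any library and COL1A2 none in HSC3 cells. The 9 summed to 13.7 to 14.4 CPM in CAL27 vehicle cells and 10.4 to 10.7 CPM in CAL27 DOX cells. In CAL27 vehicle cells 3 had a mean of at least 1 CPM, COL1A1 with 8.4, COL1A2 with 2.24 and LUM with 2.09 CPM. The HSC3 sums were 6.19 to 7.44 CPM with vehicle and 8.22 to 11.2 CPM with DOX. Endothelial markers summed to 8.83 to 15.3 CPM in CAL27 cells and to 0.135 to 0.52 CPM in HSC3 cells, and leukocyte markers to 3.59 to 5.18 CPM and 0.175 to 1.35 CPM. In CAL27 vehicle cells 1 gene made up most of each sum. CDH5 had a mean of 14.6 CPM, beside 0.0365 for PECAM1 and 0.491 for VWF. CD14 had 4.7 CPM, beside 0.0426 for PTPRC and 0.252 for CD3E.

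Per length, PLOD2 led the family in vehicle-treated cells of both lines. Levels between genes are given as CPM, normalized by TMM over the 12 libraries, per kilobase of all annotated exons of the gene. In CAL27 vehicle cells PLOD2 had 15.4 ± 0.228 CPM per kb (SD, n = 3), followed by PLOD1 with 12.5 ± 0.506 and LOXL4 with 12 ± 0.663, whose ranges overlapped. PLOD3 with 7.29 ± 0.327 CPM per kb and LOXL2 with 7.2 ± 0.452 also overlapped, LOX had 2.79 ± 0.165, and LOXL1 with 0.533 ± 0.112 overlapped LOXL3 with 0.416 ± 0.0233. LOXL4, an oxidase of the same branch as LOXL2 and LOXL3 with scavenger receptor domains, was thus the highest oxidase of CAL27 vehicle cells per kilobase of exon, while per kilobase of longest transcript its 12 CPM per kb overlapped the 11.6 of LOXL2.

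In HSC3 vehicle cells LOXL4 came last of the 8 genes. PLOD2 had 16.4 ± 0.879 CPM per kb (SD, n = 3), LOXL2 10.1 ± 0.668, PLOD3 7.25 ± 0.149 and PLOD1 4.98 ± 0.515, with no overlap between neighbours. LOX had 2.62 ± 0.187 CPM per kb and LOXL3 0.738 ± 0.0544, while LOXL1 with 0.169 ± 0.0403 and LOXL4 with 0.116 ± 0.0226 overlapped. The length of a gene is a convention that moves such an order. PLOD2 has 14518 bases of annotated exons but a longest transcript of 5867, and per kilobase of longest transcript 6 of 8 genes kept their rank in CAL27 vehicle cells and 8 of 8 in HSC3 vehicle cells.

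After DOX the order changed at several places. In CAL27 DOX cells PLOD1 and PLOD2 overlapped at 12.5 ± 0.267 and 12.5 ± 0.879 CPM per kb (SD, n = 3), LOXL2 followed with 8.37 ± 0.406, and LOXL4 with 2.12 ± 0.38 had come down to overlap LOX with 2.03 ± 0.0501. In HSC3 DOX cells PLOD2 with 18.5 ± 1.7 CPM per kb and LOXL2 with 11.6 ± 1.1 stayed first, and LOX with 6.87 ± 0.867 now stood above PLOD3 with 5.52 ± 0.575 and PLOD1 with 3.96 ± 0.986. Per kilobase of longest transcript 0 of 8 genes kept their rank in CAL27 DOX cells, where PLOD2 was then first, and 6 of 8 in HSC3 DOX cells, where PLOD3 was then above LOX.

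**Figure D1:**
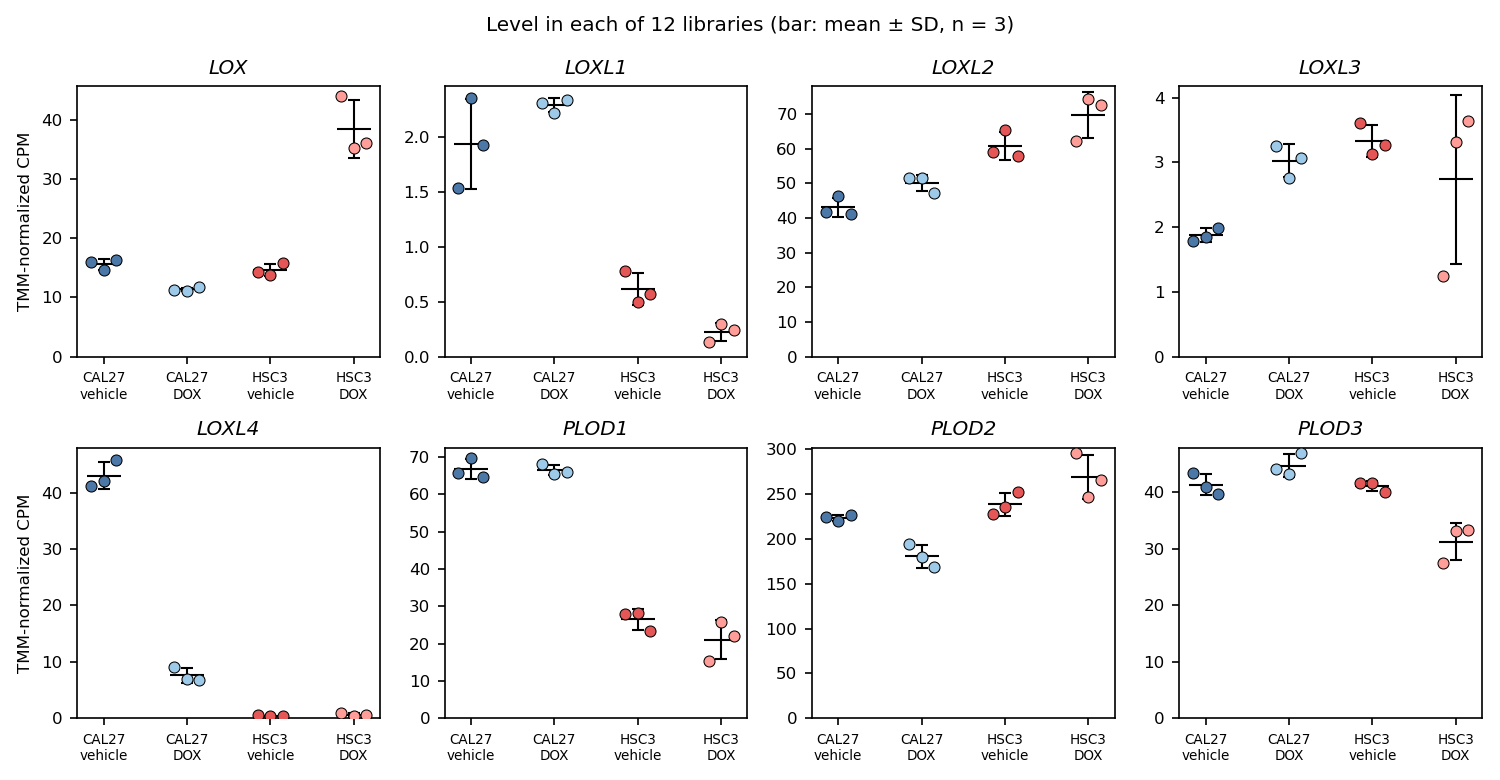
Level of each of the 8 genes in TMM-normalized CPM (y axis, from 0) in the 12 libraries, by line and treatment (x axis); points are libraries and the bar is the mean ± SD of 3 libraries. LOXL4 falls from 43 to 7.61 CPM in CAL27 cells and is under 1 CPM in all HSC3 libraries, while LOX is highest in the 3 HSC3 DOX libraries at 35.25 to 44.01 CPM.

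With vehicle, HSC3 cells had more LOXL2 and LOXL3 and less LOXL1 and PLOD1 than CAL27 cells. Of the 7 relatives 2 were higher, 2 were lower and 3 did not pass an adjusted p under 0.05, where 62.9% of the 20694 genes tested passed it, 30.6% higher and 32.3% lower. With a fold change above 2 in addition, LOXL1 and PLOD1 were lower, where 31.9% of all genes passed, 13.2% higher and 18.7% lower. LOXL1, which acts on elastin, was lower in HSC3 cells by a log2 difference of -1.65 (SE 0.286, edgeR adjusted p = 0.00011). PLOD1, which hydroxylates lysines of the collagen triple helix, was 2.52-fold lower (SE 0.133 on the log2 scale, edgeR adjusted p = 2.8e-07). LOXL2 was higher by 0.49 (SE 0.0767, edgeR adjusted p = 3.6e-05) and LOXL3 by 0.83 (SE 0.283, edgeR adjusted p = 0.018) on the log2 scale. The LOXL3 call was lost without CAL27 vehicle replicate 1 (0.78 on the log2 scale, edgeR adjusted p = 0.06), CAL27 vehicle replicate 2 (0.81, edgeR adjusted p = 0.052) or HSC3 vehicle replicate 1 (0.76, edgeR adjusted p = 0.059), and its adjusted p ran from 4.2e-05 to 0.11 over all alternatives.

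The 3 relatives that did not pass lay close between the lines on this scale. The log2 difference was -0.093 for LOX (95% interval -0.29 to 0.104, edgeR adjusted p = 0.40), 0.096 for PLOD2 (edgeR adjusted p = 0.24) and -0.0077 for PLOD3 (95% interval -0.165 to 0.15, edgeR adjusted p = 0.94). These values depend on how the lines are set to a common scale. Scaling by library totals in place of TMM moved the median log2 difference of all genes by -0.27, from -0.118 to -0.388, and the share of calls that were higher in HSC3 cells from 48.7% to 35.7%. LOX, PLOD2 and PLOD3 were then called lower in HSC3 cells, at -0.36 (edgeR adjusted p = 0.002), -0.17 (edgeR adjusted p = 0.017) and -0.28 (edgeR adjusted p = 0.0061), LOXL3 was not called at 0.56 (edgeR adjusted p = 0.11), and LOXL2 was higher by 0.22. Over all alternatives the adjusted p of LOX ran from 0.002 to 0.66, that of PLOD2 from 0.017 to 0.66 and that of PLOD3 from 0.0061 to 0.99.

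LOXL4 had 41.23, 42.12 and 45.73 CPM in the CAL27 vehicle libraries and 9.184, 6.924 and 6.724 CPM in the CAL27 DOX libraries, with no overlap. In HSC3 cells it had 0.5115, 0.3649 and 0.3769 CPM with vehicle and 0.9706, 0.3413 and 0.5125 CPM with DOX, and these groups overlapped. The HSC3 values stand on 30 to 59 counts with vehicle and 46 to 144 with DOX, or about 6.04 to 8.5 and 5.12 to 8.34 molecules per library. The gene lies on chromosome 10 from 98247690 to 98268194 on the minus strand (GRCh38, GENCODE v44). Its mean was 5.68-fold lower with DOX in CAL27 cells (log2 fold change -2.51), and its log2 fold change in HSC3 cells was 0.53, or 0.03 without HSC3 DOX replicate 1. Between the lines LOXL4 was 102-fold lower in HSC3 cells with vehicle and 12.3-fold lower with DOX, or -4.15 on the log2 scale in place of -3.62 without HSC3 DOX replicate 1. In bulk RNA, fewer cells that express a gene and less RNA of it per cell cannot be told apart.

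None of the 7 relatives changed by more than 2-fold in CAL27 cells, where LOXL4, chosen for its response, was 5.68-fold lower with DOX. LOXL2 and LOXL3 rose and LOX and PLOD2 fell, all at an adjusted p under 0.05, and LOXL1, PLOD1 and PLOD3 did not pass. These 4 of 7 stand beside 44.5% of the 19239 genes tested, of which 22.6% rose and 21.8% fell, and 6.42% changed by more than 2-fold, 1.31% up and 5.11% down. The median log2 fold change was 0.112 over the 7 relatives and -0.00522 over all genes tested.

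In HSC3 cells LOX rose by 2.61-fold and PLOD3 fell, and the other 5 relatives did not pass. These 2 of 7 stand beside 28.4% of the 18021 genes tested, of which 13.0% rose and 15.4% fell. LOX was the 1 relative to pass with a fold change above 2, where 5.98% of all genes did, 1.58% up and 4.40% down. The median log2 fold change was -0.289 over the 7 relatives and -0.00973 over all genes tested. The median of the relatives is the value of LOXL3, which was 0.06 without HSC3 DOX replicate 1, so it rests on that library.

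LOX, the first described member of the family and the enzyme that cross-links fibrillar collagen and elastin, moved in opposite directions. In CAL27 cells it had 15.97, 14.59 and 16.35 CPM with vehicle and 11.24, 11.18 and 11.69 CPM with DOX. The DOX libraries were all below the vehicle libraries, and the log2 fold change was -0.46 (SE 0.0654, edgeR adjusted p = 7.2e-06). In HSC3 cells it had 14.26, 13.87 and 15.85 CPM with vehicle and 44.01, 35.25 and 36.01 CPM with DOX. The DOX libraries were all above the vehicle libraries, with a log2 fold change of 1.38 (SE 0.108, edgeR adjusted p = 5.2e-06), which was 1.28 to 1.45 with any 1 library left out. Across the 4 groups HSC3 DOX was highest, the vehicle groups overlapped and CAL27 DOX was lowest. LOX lies on chromosome 5 from 122063195 to 122078413 on the minus strand, and 2.47% of its exon bases overlap SRFBP1 on the other strand. SRFBP1 rose in both lines, with log2 fold changes of 0.20 (edgeR adjusted p = 0.0042) for CAL27 and 0.52 (edgeR adjusted p = 0.0007) for HSC3 cells. The summed fibroblast markers were 6.19 to 7.44 CPM with vehicle and 8.22 to 11.2 CPM with DOX in HSC3 cells. COL1A2, COL3A1 and DCN were at 0 in both groups, and only 2 of the markers had a mean of at least 1 CPM. Their means went from 4.59 to 7.62 CPM for COL1A1 (edgeR adjusted p = 0.0089) and from 2.22 to 1.83 CPM for FAP (edgeR adjusted p = 0.44). The part of the fibroblast markers in the LOX result was not tested.

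LOXL1 had 1.537, 2.354 and 1.93 CPM with vehicle and 2.313, 2.221 and 2.337 CPM after DOX in CAL27 cells. These groups overlapped, with a log2 fold change of 0.24 (SE 0.154, edgeR adjusted p = 0.22). It was 0.08 without vehicle replicate 1 (edgeR adjusted p = 0.73) and 0.39 without vehicle replicate 2 (edgeR adjusted p = 0.07), the range over alternatives. In HSC3 cells it had 0.7802, 0.4987 and 0.5696 CPM with vehicle and 0.1348, 0.2968 and 0.248 CPM with DOX, which did not overlap. The log2 fold change of -1.45 did not pass the test in HSC3 cells alone (SE 0.531, edgeR adjusted p = 0.066). It passed when the spread was estimated over all 12 libraries (-1.45, edgeR adjusted p = 0.0016), and the adjusted p ran from 0.0016 to 0.25 over the alternatives. With any 1 library left out the log2 fold change ran from -1.69 to -1.175. The DOX libraries held 20 to 40 counts, or about 1.16 to 4.45 molecules each.

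LOXL1 lies on chromosome 15 from 73925989 to 73952137 on the plus strand, and 9.21% of its exon bases overlap the antisense RNA LOXL1-AS1. LOXL1-AS1 fell in both lines, and on the log2 scale it fell by 0.43 for CAL27 (SE 0.0892, edgeR adjusted p = 0.00046) and fell by 2.20 for HSC3 cells (SE 0.309, edgeR adjusted p = 0.00033). The fall was larger in HSC3 cells, by a log2 difference of -1.77 between the lines (SE 0.287, edgeR adjusted p = 0.00041). The strand setting of the counting is not given in the sources used here, so reads of this pair cannot be told apart in the shared bases.

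LOXL2, which cross-links basement membrane collagen IV, rose slightly in CAL27 cells. It had 41.83, 46.19 and 41.24 CPM with vehicle and 51.37, 51.59 and 47.28 CPM with DOX, with no overlap and a log2 fold change of 0.21 (SE 0.0521, edgeR adjusted p = 0.0021). The HSC3 libraries had 59.12, 65.26 and 57.76 CPM with vehicle and 62.09, 74.24 and 72.56 CPM with DOX, which overlapped through DOX replicate 1. The log2 fold change there was 0.19 (SE 0.0879, edgeR adjusted p = 0.13). Without HSC3 DOX replicate 1 it was 0.28 and passed (edgeR adjusted p = 0.0016, range over alternatives 0.0016 to 0.35). The collagen IV genes COL4A1 and COL4A2 had means of 76 and 131 CPM in CAL27 vehicle cells but 0.354 and 0.0249 CPM in HSC3 vehicle cells, although LOXL2 was the higher in HSC3 cells. LOXL2 lies on chromosome 8 from 23296897 to 23425328 on the minus strand, and 2.01% of its exon bases overlap ENTPD4 on the same strand.

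LOXL3 rose in CAL27 cells, from 1.79, 1.855 and 1.996 CPM with vehicle to 3.259, 2.764 and 3.067 CPM with DOX. The groups did not overlap, and the log2 fold change of 0.69 (SE 0.127, edgeR adjusted p = 0.00016) was the largest among the 7 relatives in CAL27 cells. With 1 spread for all 12 libraries the LOXL3 and LOXL2 calls in CAL27 cells were lost, at 0.69 (edgeR adjusted p = 0.096, range over alternatives 3.9e-06 to 0.096) and 0.22 (edgeR adjusted p = 0.052, range over alternatives 2e-05 to 0.052). In HSC3 cells LOXL3 had 3.606, 3.126 and 3.275 CPM with vehicle and 1.247, 3.324 and 3.646 CPM with DOX. Only DOX replicate 1 lay below the vehicle range. The log2 fold change of -0.29 did not pass (SE 0.331, edgeR adjusted p = 0.59) and was 0.06 without that library (edgeR adjusted p = 0.85, range over alternatives 0.34 to 0.85). LOXL3 lies on chromosome 2 from 74532258 to 74555690 on the minus strand and shares 20.7% of its exon bases with HTRA2 on the other strand, which had log2 fold changes of 0.08 (edgeR adjusted p = 0.53) and 0.05 (edgeR adjusted p = 0.84).

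Among the hydroxylases, PLOD2 acts on the telopeptides, the ends of the collagen chains, and fell in CAL27 cells. It had 223.8, 219.7 and 226.2 CPM with vehicle and 194, 179.9 and 168.5 CPM with DOX, with no overlap and a log2 fold change of -0.31 (SE 0.0436, edgeR adjusted p = 7.7e-06). HSC3 cells had 227.4, 235.8 and 252.5 CPM with vehicle and 295.4, 246.5 and 265.6 CPM with DOX. These overlapped through DOX replicate 2, and the log2 fold change of 0.17 did not pass (SE 0.0735, edgeR adjusted p = 0.12) and was 0.10 without DOX replicate 1 (edgeR adjusted p = 0.15, range over alternatives 0.051 to 0.34). PLOD2 lies on chromosome 3 from 146035139 to 146163725 on the minus strand.

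PLOD3, which adds glucose and galactose to hydroxylysine as well as hydroxylating it, fell in HSC3 cells. It had 41.61, 41.64 and 40.16 CPM with vehicle and 27.54, 33.09 and 33.29 CPM with DOX, with no overlap and a log2 fold change of -0.40 (SE 0.0935, edgeR adjusted p = 0.0083). In CAL27 cells it had 43.4, 40.88 and 39.78 CPM with vehicle and 44.1, 43.21 and 46.99 CPM with DOX, which overlapped, with a log2 fold change of 0.11 (SE 0.0478, edgeR adjusted p = 0.064). Without the filter on low counts it passed at 0.12 (edgeR adjusted p = 0.041, range over alternatives 0.041 to 0.33), and it was 0.07 without CAL27 vehicle replicate 3. PLOD3 lies on chromosome 7 from 101205977 to 101218420 on the minus strand and shares 1.8% of its exon bases with ZNHIT1 on the other strand.

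PLOD1 showed little response in CAL27 cells, with 65.81, 69.79 and 64.66 CPM with vehicle and 68.09, 65.48 and 65.82 CPM with DOX. The log2 fold change was -0.0091 (95% interval -0.0981 to 0.0798, edgeR adjusted p = 0.89). The HSC3 libraries had 28.03, 28.08 and 23.31 CPM with vehicle and 15.45, 25.83 and 21.94 CPM with DOX, with DOX replicate 1 the lowest. The log2 fold change of -0.33 did not pass (SE 0.166, edgeR adjusted p = 0.18), and which library was left out decided its size. It was -0.15 without DOX replicate 1 (edgeR adjusted p = 0.29) and -0.51 without DOX replicate 2 (edgeR adjusted p = 0.036), with a range over alternatives of 0.036 to 0.40. All 6 HSC3 libraries were below all 6 CAL27 libraries. PLOD1 lies on chromosome 1 from 11934205 to 11975538 on the plus strand.

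The response to DOX itself differed between the lines for 4 of the 7 relatives. LOX and PLOD2 were higher and LOXL1 and PLOD3 were lower in the HSC3 response than in the CAL27 response, where 20.6% of the 20694 genes differed, 8.25% higher and 12.3% lower. LOX, higher, and LOXL1, lower, also passed a difference above 2-fold, which 5.21% of all genes did, 2.19% higher and 3.02% lower. The difference in log2 fold change was 1.85 for LOX (SE 0.131, edgeR adjusted p = 2.3e-07) and -1.69 for LOXL1 (SE 0.409, edgeR adjusted p = 0.0078). It was 0.48 for PLOD2 (SE 0.0961, edgeR adjusted p = 0.0021) and -0.51 for PLOD3 (SE 0.104, edgeR adjusted p = 0.0025). For LOXL2 it was -0.019 (95% interval -0.25 to 0.212, edgeR adjusted p = 0.95), for PLOD1 -0.32 (edgeR adjusted p = 0.26) and for LOXL3 -0.98 (edgeR adjusted p = 0.10). LOXL3 passed without HSC3 DOX replicate 1 (-0.61, edgeR adjusted p = 0.038) and without HSC3 DOX replicate 3 (-1.21, edgeR adjusted p = 0.049), and PLOD1 passed without HSC3 DOX replicate 2 (-0.50, edgeR adjusted p = 0.032) but was -0.12 without HSC3 DOX replicate 1 (edgeR adjusted p = 0.47). Over all alternatives the adjusted p ran from 0.019 to 0.19 for LOXL3 and from 0.032 to 0.51 for PLOD1. The same difference was 3.05 for LOXL4, or 2.53 without HSC3 DOX replicate 1, as a description.

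**Figure D2:**
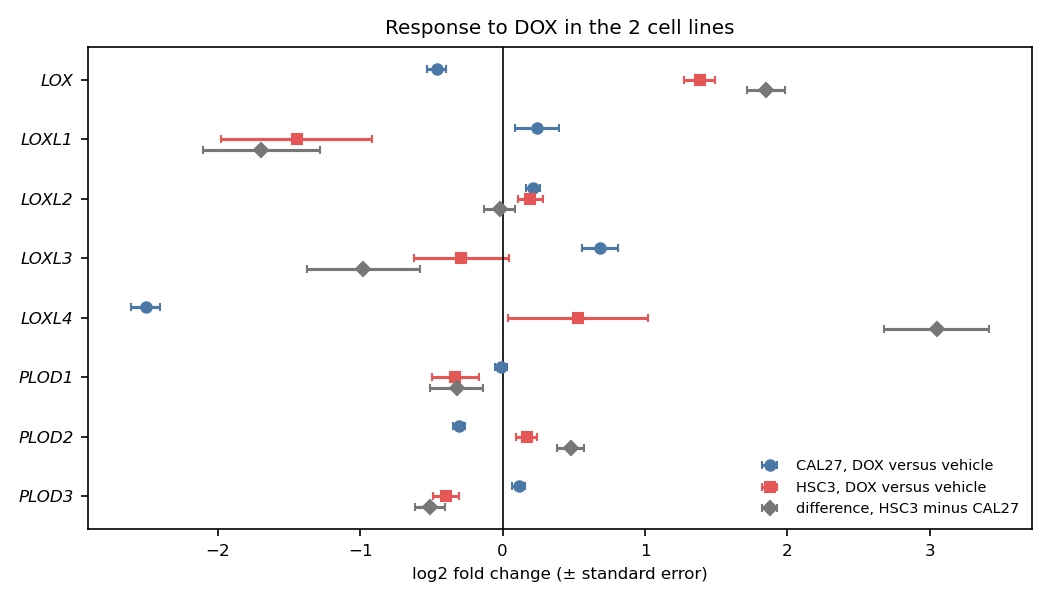
Log2 fold change of DOX against vehicle (x axis) for each gene (y axis) in CAL27 cells (circles), in HSC3 cells (squares) and the difference of the responses, HSC3 minus CAL27 (diamonds); bars are ± 1 standard error. LOX lies at -0.46 in CAL27 cells and 1.38 in HSC3 cells, LOXL4 at -2.51 and 0.53, and LOXL2 at 0.21 and 0.19.

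After DOX, 6 of the 7 relatives differed between the lines. LOX, LOXL2 and PLOD2 were higher and LOXL1, PLOD1 and PLOD3 were lower in HSC3 DOX cells than in CAL27 DOX cells, where 63.8% of the 20694 genes differed, 29.9% higher and 33.9% lower. With a fold change above 2 in addition there were 3, LOX higher and LOXL1 and PLOD1 lower, where 33.0% of all genes passed, 13.3% higher and 19.7% lower. LOX was 3.38-fold higher (SE 0.0939 on the log2 scale, edgeR adjusted p = 1.7e-10). The log2 difference was 0.48 for LOXL2 (edgeR adjusted p = 5.2e-05) and 0.57 for PLOD2 (edgeR adjusted p = 2e-06). It was -3.34 for LOXL1 (edgeR adjusted p = 1.2e-07), -1.66 for PLOD1 (edgeR adjusted p = 2.3e-08) and -0.52 for PLOD3 (edgeR adjusted p = 1.6e-05). LOXL3 had -0.15 (edgeR adjusted p = 0.67), or 0.21 without HSC3 DOX replicate 1 (edgeR adjusted p = 0.23, range over alternatives 0.22 to 0.83). Library totals moved the median of all genes by -0.281 here and the share of calls that were higher from 46.9% to 34.4%, and 6 of 7 relatives were called with the same directions, LOXL2 at 0.20 and PLOD2 at 0.29 on the log2 scale.

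The make-up of the lysyl oxidase class differed between the vehicle-treated lines. LOXL4 made up 52.2% ± 1.73 (SD, n = 3) of the summed oxidase level, in CPM per kb of exon, in CAL27 vehicle cells and 15.3% ± 2.04 in CAL27 DOX cells. In HSC3 cells its share was 0.845% ± 0.179 with vehicle and 0.882% ± 0.493 with DOX. LOXL2 made up 31.4% ± 2.05 and then 60.6% ± 1.81 in CAL27 cells, and 73.5% ± 2.37 and then 60.1% ± 4.36 in HSC3 cells. A share also moves when other members change. The LOXL2 level itself went from 7.2 to 8.37 CPM per kb in CAL27 cells and from 10.1 to 11.6 in HSC3 cells. The LOX share went from 12.2% ± 0.826 to 14.7% ± 1.02 in CAL27 cells, although its level fell there, and from 19% ± 1.87 to 35.6% ± 5.38 in HSC3 cells. HSC3 DOX replicate 1 had the highest LOX share, 41.79%, where the other DOX replicates had 32.11% and 32.87%.

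The summed level of the class was 22.9 ± 0.706 CPM per kb (SD, n = 3) with vehicle and 13.8 ± 0.662 after DOX in CAL27 cells. The HSC3 sum was 13.8 ± 0.458 with vehicle and 19.3 ± 0.447 with DOX. These sums contain LOXL4, whose response chose the family, and were not tested. Without LOXL4 the sum was 10.9 ± 0.386 CPM per kb with vehicle and 11.7 ± 0.342 with DOX in CAL27 cells, where the groups overlapped. It was 13.7 ± 0.466 and 19.2 ± 0.536 in HSC3 cells, where they did not. The 3 hydroxylases summed to 35.2 ± 0.402 and 32.8 ± 0.951 CPM per kb with vehicle and DOX in CAL27 cells, and the HSC3 sums were 28.7 ± 0.34 and 28 ± 0.319. PLOD2 made up 43.7% ± 1.09 and 37.9% ± 1.74 of that sum in CAL27 cells, against 57.3% ± 2.59 and 66.1% ± 5.66 for HSC3. Its share was 72.39% in HSC3 DOX replicate 1 and 61.37% and 64.67% in the other DOX replicates. Per kilobase of longest transcript the LOXL4 share in CAL27 cells was 43% with vehicle and 10.8% with DOX, and LOXL2 made up 41.6% and 69.2%.

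**Figure D3:**
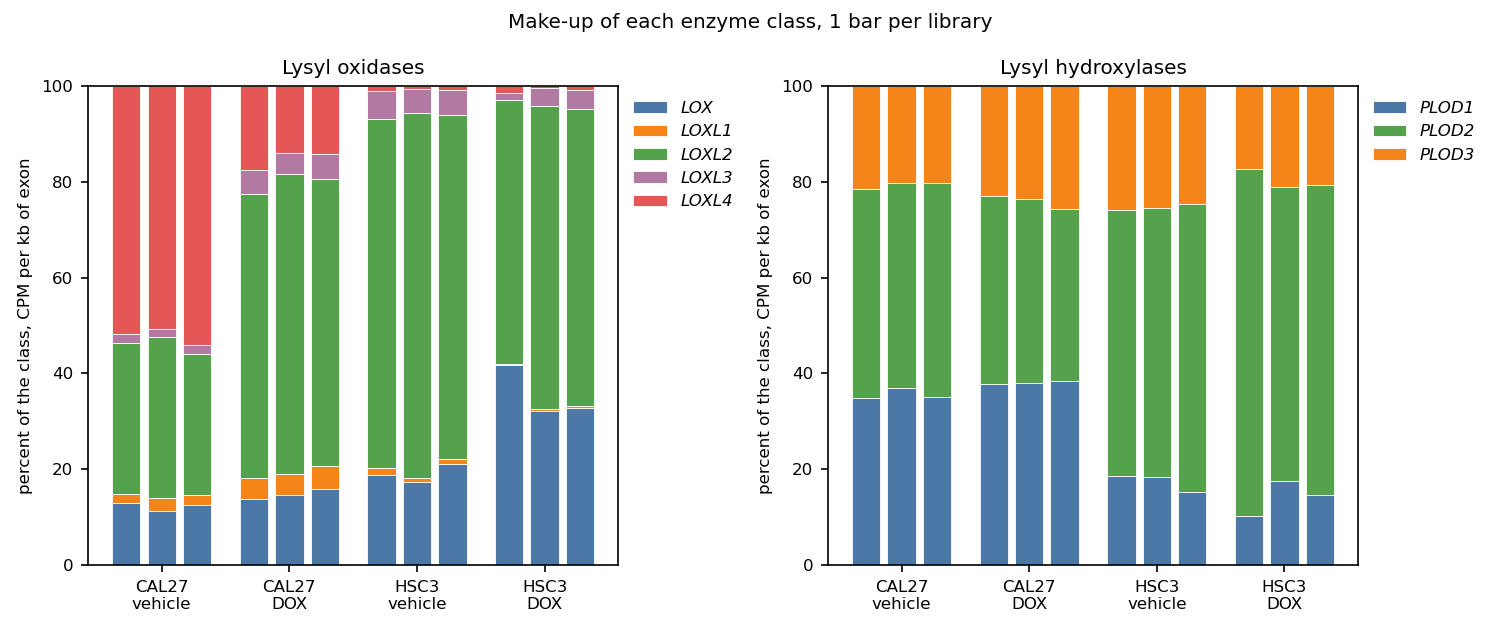
Share of each gene in the summed level of its class (y axis, percent of CPM per kb of exon), with 1 bar per library grouped by line and treatment (x axis); lysyl oxidases are on the left and lysyl hydroxylases on the right. LOXL4 takes 52.2% of the oxidase sum in CAL27 vehicle cells and 15.3% in CAL27 DOX cells, and LOX takes 35.6% in HSC3 DOX cells.

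Across the 12 libraries, the relatives were not among the 5 genes nearest to LOXL4 by a measure that includes the size of the differences. Likeness was the root mean square difference in log2 CPM after centering each gene on its own mean, among 11668 genes, which were the relatives and all genes whose mean reached a log2 CPM of 1. The 5 nearest genes were C3 (0.579), GBP2 (0.612), CP (0.64), PPM1L (0.684) and SLPI (0.691). C3 is the central complement protein, GBP2 an interferon-induced GTPase, CP the copper-carrying plasma ferroxidase ceruloplasmin, PPM1L a protein phosphatase and SLPI a secreted protease inhibitor. CP had a group mean log2 CPM of 4.27 and 2.24 in CAL27 cells with vehicle and DOX and of -0.92 and -0.86 in HSC3 cells, beside 5.43, 2.92, -1.22 and -0.81 for LOXL4. C3 had 8.70, 7.21, 3.18 and 3.13. Among the relatives LOXL1 was nearest at 1.88, in place 361, then PLOD1 at 2.11 in place 734, and LOX was farthest at 3.12 in place 9083. The Pearson correlation with LOXL4, which leaves size out, was 0.876 for PLOD1, 0.793 for LOXL1 and 0.457 for PLOD3. It was -0.454 for LOX, -0.506 for PLOD2, -0.508 for LOXL3 and -0.921 for LOXL2. The 12 libraries fall into 4 groups that share line and treatment, so this likeness mainly describes the differences between the group means.

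**Figure D4:**
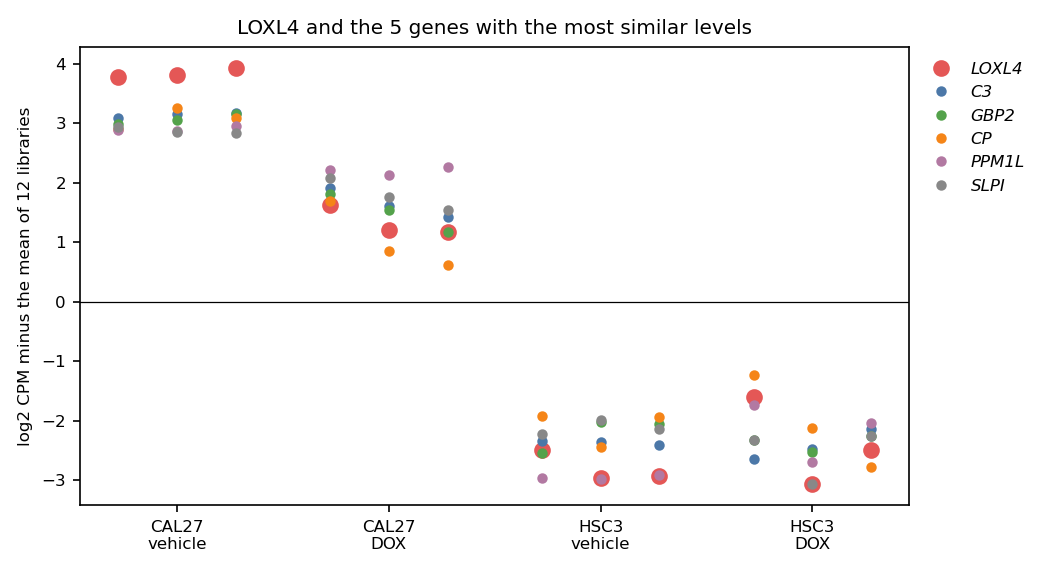
Log2 CPM minus the gene's mean over the 12 libraries (y axis) for LOXL4 (large points) and the 5 nearest genes in each library, by line and treatment (x axis). All 6 genes are highest in the CAL27 vehicle libraries, lower in the CAL27 DOX libraries and below 0 in all HSC3 libraries. The 5 genes were picked for this likeness, so the shared order follows from the choice.

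The other enzymes and chaperones that modify procollagen in the endoplasmic reticulum had a median fall in HSC3 cells. Of 16 genes listed, 15 were tested in CAL27 cells, where 4 rose and 5 fell (median log2 fold change 0.0283), and 16 in HSC3 cells, where 2 rose and 7 fell (median -0.38). Over all genes tested 22.6% rose and 21.8% fell in CAL27 cells and 13.0% rose and 15.4% fell in HSC3 cells. CRTAP, which forms the prolyl 3-hydroxylation complex with P3H1, fell by 0.61 (log2) in CAL27 cells (edgeR adjusted p = 7.1e-11) and by 1.38 in HSC3 cells (edgeR adjusted p = 3e-07). P3H1, the hydroxylase of that complex, fell by 0.51 (edgeR adjusted p = 8e-07) and by 0.73 (edgeR adjusted p = 0.0007). FKBP14, a prolyl isomerase of the endoplasmic reticulum, rose by 0.41 (edgeR adjusted p = 5.1e-08) and 0.84 (edgeR adjusted p = 7.5e-05). P3H3, a relative of P3H1, fell by 1.80 in HSC3 cells (edgeR adjusted p = 0.0024) and had group means of 0.0625 and 0.0349 CPM in CAL27 cells, and TMEM38B, a cation channel of the endoplasmic reticulum, rose by 0.46 in CAL27 cells (edgeR adjusted p = 6e-08) and 0.36 in HSC3 cells (edgeR adjusted p = 0.011). The responses of 1 gene were higher and of 4 lower in HSC3 than in CAL27 cells, where 8.25% and 12.3% of all genes were.

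Procollagen processing and copper supply was a list of 11 genes. In CAL27 cells 3 of 10 tested rose and 3 fell (median 0.0304), and in HSC3 cells 3 of 8 rose and 1 fell (median 0.0783), or 2 without HSC3 DOX replicate 1, where 22.6% and 21.8% of all genes did in CAL27 and 13.0% and 15.4% in HSC3 cells. BMP1, which cleaves procollagen and the propeptide of LOX, fell by 0.32 in CAL27 cells (edgeR adjusted p = 5.8e-05) and by 0.44 in HSC3 cells (edgeR adjusted p = 0.0029) on the log2 scale. Its relative TLL2 fell by 0.75 in CAL27 cells (edgeR adjusted p = 5.5e-05) and rose by 0.74 in HSC3 cells (edgeR adjusted p = 0.00042), a difference of 1.49 (edgeR adjusted p = 3e-05). The copper chaperone ATOX1 rose by 0.28 in CAL27 cells (edgeR adjusted p = 7.6e-05) and 0.52 in HSC3 cells (edgeR adjusted p = 0.00084), and the difference of 0.24 did not pass (edgeR adjusted p = 0.084). The copper pump ATP7A, which loads secreted copper enzymes, rose by 0.24 in HSC3 cells (edgeR adjusted p = 0.027) and had -0.08 in CAL27 cells (edgeR adjusted p = 0.29). In CAL27 cells ADAMTS3, a procollagen N-proteinase, fell by 0.75 (edgeR adjusted p = 5.3e-05), and PCOLCE2, an enhancer of C-propeptide cleavage, rose by 0.38 (edgeR adjusted p = 0.00031) and had -0.14 in HSC3 cells (edgeR adjusted p = 0.59). In the difference 2 were higher and 3 lower, beside the 8.25% and 12.3% of all genes. Without HSC3 DOX replicate 1, 3 were higher and 3 lower, and over all genes 2614 in place of 1708 were higher. The lower ones over all genes were 2547, or 1947 to 3233 with any 1 library left out.

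Substrates and partners of the oxidases were a list of 20 genes. In CAL27 cells 4 of 17 tested rose and 10 fell (median log2 fold change -0.306), and 3 fell by more than 2-fold, where 22.6% of all genes rose, 21.8% fell and 5.11% fell by more than 2-fold. In HSC3 cells 4 of 14 rose and 8 fell (median -0.904), with 2 rises and 6 falls above 2-fold. Of all genes 13.0% rose there, 15.4% fell and 4.40% fell by more than 2-fold. Without HSC3 DOX replicate 1, 10 of the list fell. Over all genes 2782 fell in HSC3 cells, or 2049 to 3601 with any 1 library left out. BGN, or biglycan, a small proteoglycan on collagen fibrils, fell by 3.13 (log2) in CAL27 cells (edgeR adjusted p = 6.9e-09) and by 3.16 in HSC3 cells (edgeR adjusted p = 0.00064), the latter from 88 to 104 counts to 8 to 18. FN1, or fibronectin, which binds LOX in the matrix, was 4.66-fold higher in HSC3 DOX cells (edgeR adjusted p = 1.5e-08) and had a log2 fold change of 0.02 in CAL27 cells (edgeR adjusted p = 0.73), a difference of 2.20 (edgeR adjusted p = 9.7e-11). COL12A1, a collagen on the surface of fibrils, and FBLN1, or fibulin 1, fell by 1.90 (edgeR adjusted p = 2.1e-07) and by 1.94 (edgeR adjusted p = 1.1e-05) in HSC3 cells, and fell by 0.17 (edgeR adjusted p = 0.012) and by 0.92 (edgeR adjusted p = 4.1e-12) in CAL27 cells. In CAL27 cells FMOD, or fibromodulin, fell by 1.85 (edgeR adjusted p = 2.4e-05). The collagen VI chain COL6A2 fell by 1.33 (edgeR adjusted p = 1.3e-10) in CAL27 and by 1.59 (edgeR adjusted p = 0.0002) in HSC3 cells, and its partner chain COL6A1 fell by 0.93 (edgeR adjusted p = 1.3e-11) and by 0.71 (edgeR adjusted p = 0.0016). In the difference 2 were higher and 4 lower, beside the 8.25% and 12.3% of all genes. Without HSC3 DOX replicate 1, 3 were higher and 5 lower, and over all genes 2614 in place of 1708 were higher. The lower ones over all genes were 2547, or 1947 to 3233 with any 1 library left out.

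Of 12 hypoxia response genes, 0 rose and 7 fell in CAL27 cells (median log2 fold change -0.467), and 1 of 11 tested rose and 4 fell in HSC3 cells (median -0.292), where 22.6% of all genes rose and 21.8% fell in CAL27 and 13.0% and 15.4% in HSC3 cells. NDRG1, a stress-responsive gene, fell by 1.91 (log2) in CAL27 cells (edgeR adjusted p = 5.4e-06) and by 1.33 in HSC3 cells (edgeR adjusted p = 1.9e-07). CA9, a carbonic anhydrase, fell by 1.58 in CAL27 cells (edgeR adjusted p = 1.8e-09), as did the HIF prolyl hydroxylase EGLN3 by 0.83 (edgeR adjusted p = 9.1e-10), which had -0.44 in HSC3 cells (edgeR adjusted p = 0.088). The peptide hormone ADM fell by 0.79 in CAL27 cells (edgeR adjusted p = 2.1e-08) and rose by 0.37 in HSC3 cells (edgeR adjusted p = 0.0023), with a difference of 1.17 (edgeR adjusted p = 2.2e-06). It thus had the same signs as LOX in each line, while the mitophagy receptor BNIP3 fell by 0.60 (edgeR adjusted p = 0.00012) and VEGFA by 0.49 (edgeR adjusted p = 0.00012) in HSC3 cells, where LOX rose. In CAL27 cells BNIP3 fell by 0.35 (edgeR adjusted p = 5.9e-06) and VEGFA had -0.0021 (edgeR adjusted p = 0.98). In the difference 3 were higher and 2 lower, where 8.25% and 12.3% of all genes were. Without HSC3 DOX replicate 1, 4 were higher and 2 lower, and over all genes 2614 in place of 1708 were higher. The lower ones over all genes were 2547, or 1947 to 3233 with any 1 library left out.

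**Figure D5:**
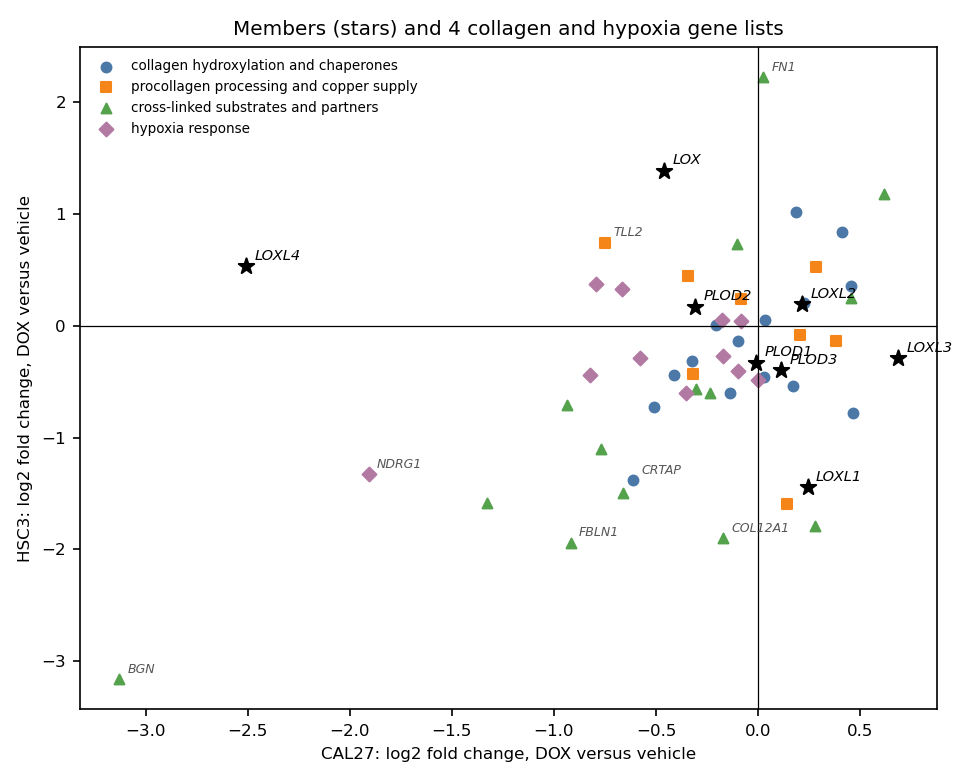
Log2 fold change with DOX in CAL27 cells (x axis) against HSC3 cells (y axis) for the 8 family members (stars) and the genes of 4 lists that were tested in both lines (other symbols, 1 per list). LOX, LOXL4 and PLOD2 lie in the upper left, below 0 in CAL27 cells and above 0 in HSC3 cells, BGN in the far lower left at -3.13 and -3.16, and FN1 at the top at 2.22.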

How the data were processed

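RNA-seq libraries of tet-MUC1shRNA cells of 2 lines, CAL27 and HSC3, were analysed, with 3 per line and treatment (vehicle or DOX, 7 days). The authors deposited 1 table of whole-number counts per line, not normalized, with genes listed by symbol. The labels give TRIzol extraction and stranded poly(A) libraries, and the submitters' processing notes name FastQC 0.11.9, STAR 2.7.9a, featureCounts of Subread 2.0.1 and GRCh38. The annotation, strand setting and handling of duplicated reads are not given in the sources used here. With duplicated reads a count is less than 1 molecule, so low counts are less precise than their number. Counts per molecule were estimated for each library from how often genes with an expected count of 8 to 16 had none.

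Counts were fitted in R 4.3.3 with edgeR 4.0.16 (TMM, filterByExpr with a count minimum of 10 and total minimum of 15, robust glmQLFit, two-sided glmQLFTest, Benjamini-Hochberg adjustment over all genes tested). DOX was compared with vehicle within each line, and the lines and their responses were compared in 1 fit of 12 libraries. A gene changed at an adjusted p under 0.05. Coordinates and lengths are from GENCODE v44, which may not be the annotation counted. Replicate pairs were compared (0.535% to 1.93% of genes had equal counts), and all libraries were kept as replicates. The fits were tested on simulated data with 200 genes changed by 1.5 on the log2 scale, far fewer than were called in the real data. They recovered 92% of these in CAL27 cells, 74% in HSC3 cells and 62.5% in the difference. Unchanged genes made up 5.64%, 2.63% and 7.41% of the calls. Named genes are the 8 members, MUC1, overlapping genes, the 5 nearest to LOXL4, and up to 4 genes per list and line with the largest passing changes. Values of these list genes in the other line are given where the gene was tested there. COL4A1 and COL4A2 were named after their values were seen. The members and gene lists were chosen with earlier results of these data known. Alternatives were DESeq2 1.42.0, other scalings, no filter, division by counts per molecule, 1 fit over 12 libraries, a replicate block, longest transcripts and each library left out.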

Additional observations from a re-analysis of the deposited data

Results flagged for a closer look

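For 4 of the 7 relatives of LOXL4 the response to DOX differed between HSC3 and CAL27 cells by the test of the difference itself, the line by treatment contrast in edgeR. Of the 20694 genes tested, 20.6% differed by this test, 8.25% higher and 12.3% lower. The difference in log2 fold change, HSC3 minus CAL27, was 1.85 for LOX, -1.69 for LOXL1, 0.478 for PLOD2 and -0.509 for PLOD3. LOX and PLOD2 fell in CAL27 cells and had log2 fold changes above 0 in HSC3 cells, of which that of LOX passed. LOXL1 and PLOD3 had log2 fold changes above 0 that did not pass in CAL27 cells and below 0 in HSC3 cells, of which that of PLOD3 passed. The LOXL1 value rests on 20 to 40 counts in each HSC3 DOX library. All 4 were called with the same direction under each of the 17 alternatives tried, with LOX from 1.76 to 1.93 and LOXL1 from -1.95 to -1.40. The cause of these differences was not tested.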

How the results depend on the processing

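Of 545 values for single relatives under the alternatives, 516 kept their direction and their side of the threshold. With 1 fit over all 12 libraries, 2 relatives changed in CAL27 cells in place of 4, and 2746 genes were higher and 2337 lower in place of 4351 and 4203. With any 1 library left out, higher genes in HSC3 cells ran from 1514 (without vehicle replicate 2) to 3268, and higher genes in the difference from 1336 to 2614 (without HSC3 DOX replicate 1). The sign turned for values near 0. In CAL27 cells PLOD1 was 0.00028 without the filter on low counts and ran from -0.043 to 0.015 with a library left out. With a library left out LOXL3 ran from -0.55 to 0.062 in HSC3 cells and from -0.39 to 0.21 between the DOX groups, PLOD3 from -0.046 to 0.015 between the vehicle groups and LOXL2 from -0.070 to 0.078 in the difference. With library totals PLOD2 was -0.17 between the vehicle groups. Per kilobase of longest transcript 0, 6 and 6 of 8 genes kept their rank in CAL27 DOX, CAL27 vehicle and HSC3 DOX cells. LOXL1 in HSC3 cells had no value after division by counts per molecule, because it was then filtered out. The cause of these changes was not tested. With the replicate number as a block in HSC3 cells 2 relatives changed (LOX 1.38, PLOD3 -0.40), and 1955 genes were higher and 2523 lower. Deviations from the group mean correlated at -0.199, 0.346 and -0.336 between same-numbered vehicle and DOX libraries over 9273 genes. The highest value of any pair was 0.475, between vehicle replicate 3 and DOX replicate 1. With 3 libraries per group these values cannot decide whether the numbers pair the libraries. No paired analysis was possible in CAL27 cells because the DOX columns carry numbers that the vehicle columns do not share. Depth limits LOXL1 and LOXL4 in HSC3 cells, with 13 or fewer molecules estimated in each library.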
